A study of Mus musculus with 24 samples.

Results

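The miR-99/100 family (mmu-miR-99a-5p, mmu-miR-99b-5p and mmu-miR-100-5p) and the miR-125 family (mmu-miR-125a-5p and mmu-miR-125b-5p) were followed over 24 one-colour Agilent arrays of mouse liver RNA. The members were chosen by name, as the 5p miRNAs of both families, and they are 5 of the 1881 mouse miRNAs on the array. All 5 were among the 631 miRNAs that were flagged detected on at least 5 arrays and were tested. The livers came from 3 male mice (numbered 7, 10 and 9), each was cut into pieces, and every mouse gave 1 array to each of 8 groups of 3 arrays. In the fresh groups (0 h) the pieces went into RNA stabilizer at once, and total RNA that kept the small RNAs was prepared with DNase or without DNase. In the 96 h groups pieces of the same livers lay at room temperature before total RNA was prepared, again with and without DNase. The 4 remaining groups held fresh RNA purified, with DNase, on columns that deplete small RNAs. One of them was hybridized untreated. The others were first incubated, with 0 U, 0.026 U or 0.67 U of RNase, and purified once more without DNase. The strain, age and genotype of these mice were not given in the sources used here. Each mouse had a slide of its own that was scanned once, so an effect of slide or scan cannot be told apart from one of the mouse. A liver piece is a mixture of cells, in which fewer cells of a type and less RNA per cell cannot be told apart.

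A miRNA is cut from a hairpin precursor whose stem gives a 5p and a 3p arm, of which usually a single arm is retained in the Argonaute complex while the other is degraded. The retained arm pairs with messenger RNAs mainly through its seed, the bases near its 5′ end, so that miRNAs with a common seed are counted as a family. The miR-99/100 family is known for repressing mTOR and the IGF1 receptor, and belongs with miR-10 to an ancient animal family. The miR-125 family, the vertebrate relatives of worm lin-4, is known for roles in blood stem cells and in the p53 pathway. In mammals the genes of both families lie with a let-7 gene in shared clusters.

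The mature sequences are shown because families and partners are defined by them. They are the RefSeq sequences, written 5′ to 3′ with the seed (bases 2 to 8) in capitals.
mmu-miR-99a-5p: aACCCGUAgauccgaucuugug
mmu-miR-99b-5p: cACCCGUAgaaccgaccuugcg
mmu-miR-100-5p: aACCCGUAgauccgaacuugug
mmu-miR-125a-5p: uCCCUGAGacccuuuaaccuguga
mmu-miR-125b-5p: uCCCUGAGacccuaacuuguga

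Within the miR-99/100 family, mmu-miR-99a-5p and mmu-miR-100-5p differ by 1 base in 22, U16A, counted from 1 at the 5′ end with the base of mmu-miR-99a-5p first. mmu-miR-99a-5p and mmu-miR-99b-5p differ by 4 bases (A1C, U11A, U16C and U21C), all outside the seed. mmu-miR-125a-5p has 24 bases and mmu-miR-125b-5p has 22, and their longest common subsequence has 21. GC content was 63.6% for mmu-miR-99b-5p and 50% for each of the other 4 members. On build GRCm38.p6, all on the plus strand, mmu-miR-99a-5p lies in Mir99a at chr16:77598940-77598961, mmu-miR-99b-5p in Mir99b at chr17:17830194-17830215 and mmu-miR-100-5p in Mir100 at chr9:41531437-41531458. mmu-miR-125a-5p lies in Mir125a at chr17:17830817-17830840. mmu-miR-125b-5p comes from a pair of genes with the same mature sequence, Mir125b-1 at chr9:41581940-41581961 and Mir125b-2 at chr16:77646279-77646300, and an array signal cannot be divided between them. In RefSeq order the clusters are Mir99a, Mirlet7c-1 and Mir125b-2 on chromosome 16, Mir99b, Mirlet7e and Mir125a on chromosome 17, and Mir100, Mirlet7a-2 and Mir125b-1 on chromosome 9.

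The hairpins of Mir125a and Mir125b-1 are shown because the array signals named for their arms moved in opposite directions below. Whether a signal came from the mature arm or from another RNA was not tested. The signal of mmu-miR-125b-5p cannot be assigned to Mir125b-1 alone. The capitals mark the 5p arm on the left and the 3p arm on the right.
Mir125a: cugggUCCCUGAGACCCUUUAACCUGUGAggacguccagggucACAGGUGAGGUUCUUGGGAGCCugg
Mir125b-1: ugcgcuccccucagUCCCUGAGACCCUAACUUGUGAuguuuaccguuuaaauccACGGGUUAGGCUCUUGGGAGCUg

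The liver label was checked against miRNAs known for a cell type. All 3 hepatocyte markers (mmu-miR-122-5p, mmu-miR-192-5p and mmu-miR-194-5p) were detected on all 24 arrays. The RNA integrity number, a score of intactness given in the labels, was 8.9 to 9.0 in fresh RNA with DNase and 2.3 to 2.4 after 96 h with DNase. From 285 to 308 miRNAs were detected per array in the former and 582 to 707 in the latter, against 186 to 230 in untreated depleted RNA. Each of these moved with storage or depletion, and their part in the results below was not tested.

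Values per array are always given as mouse 7, mouse 10 and mouse 9. Signals are background-subtracted fluorescence intensities in the scanner's units, not normalized between arrays. The glog2 values are the same signals after variance stabilizing normalization (vsn), on a scale close to log2 for bright signals. A change was called when the adjusted p of limma (moderated test, Benjamini-Hochberg adjustment over 631 miRNAs) was under 0.05 and the change was at least 1 on the glog2 scale. Storage also moved the normalization itself. The vsn scaling factor averaged 0.41 on the log2 scale in fresh RNA with DNase and -1.47 after 96 h with DNase, while the scale of 4 spike-in control probes varied by 0.48 over all arrays. Values without normalization are therefore given beside the glog2 values.

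All 5 members were detected on every fresh array, and storage lowered each of them. With DNase, 5 of 5 members were called lower after 96 h, where 21.6% of all miRNAs tested were called lower. Without DNase it was again 5 of 5, against 23.1%. The median change of the members was -3.60 glog2 units with DNase and -3.59 without, beside medians of 2.36 and 2.10 over all 631 miRNAs. When no normalization was applied, 5 of 5 members (with DNase, background 15.1%) and 4 of 5 (without DNase, background 16.0%) were called lower. The exception was mmu-miR-125b-5p without DNase, at -1.27 ± 0.60 (SE) and an adjusted p of 0.0509. The shares of all miRNAs called, higher and lower, depended on scaling. With DNase 377 were higher and 136 lower, but 250 higher and 249 lower when vsn was fitted on the tested miRNAs alone. In that setting 5 of 5 members were again called lower.

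mmu-miR-99a-5p, whose family represses mTOR, gave signals of 39.4, 62.1 and 60.5 in fresh RNA with DNase. After 96 h the signals were 8.72, 24.9 and 10.1. The groups did not overlap, and the highest stored value belonged to mouse 10. The change was -3.77 ± 0.43 glog2 units (SE, limma adjusted p = 9.02e-08), and without normalization the signal was 4.08-fold lower. Without DNase the signals went from 50.04, 72.0 and 65.7 to 10.5, 23.6 and 16.2, a change of -3.59 ± 0.43.

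The signals of mmu-miR-100-5p, which differs from mmu-miR-99a-5p at the single base above, were 14.8, 22.9 and 21.8 in fresh RNA with DNase and 3.71, 7.43 and 4.18 after storage. The groups were apart again, with mouse 10 highest in both. The change was -3.55 ± 0.32 glog2 units (limma adjusted p = 5.30e-09), and 4.0-fold lower without normalization. Without DNase the change was -3.62 ± 0.32.

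mmu-miR-99b-5p, which differs from mmu-miR-99a-5p by the bases named above, was lost from detection. Its signals were 2.63, 8.92 and 6.95 in fresh RNA with DNase, all flagged detected. On none of the 6 stored arrays was it flagged detected. Its fall with storage is therefore a bound, at least 6.69-fold with DNase and at least 8.81-fold without on the vsn scale (limma adjusted p = 4.45e-07 and 1.25e-08). Without normalization the bounds were 2.81-fold and 4.53-fold. A bound sets the mean of the bright group against the higher of the dimmest detected signal and the miRNA's own signal on each stored array.

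mmu-miR-125b-5p, the miR-125 member produced from both clusters, gave 98.1, 161.0 and 156.9 in fresh RNA with DNase. After 96 h with DNase it gave 13.6, 119.5 and 11.1. The stored value of mouse 10 lay inside the fresh range and the others far below it, so the groups overlapped. The change was -4.15 ± 0.64 glog2 units (limma adjusted p = 4.54e-06), made up of -4.70, -1.82 and -5.94 in the single mice. Without DNase the stored signals were 45.0, 116.5 and 50.2, against 125.6, 183.9 and 159.2 in fresh RNA. Those groups were apart, and the change was -2.98 ± 0.64.

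mmu-miR-125a-5p had signals of 11.0, 33.9 and 18.5 in fresh RNA with DNase and of 1.55, 17.5 and 2.34 after storage. Only the stored piece of mouse 10 was flagged detected, and it overlapped the fresh range. The change was -3.60 ± 0.69 glog2 units (limma adjusted p = 6.40e-05). The pattern without DNase was the same, with signals of 2.39, 17.1 and 3.46 after storage, detection in mouse 10 alone and a change of -3.50 ± 0.69.

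The signals of mouse 10 were often the highest, before any scaling between arrays. Its signal was the highest of the 3 mice for 5 of 5 members in both fresh groups, for 4 of 5 after storage with DNase and for 5 of 5 after storage without DNase. In the depleted RNA this held for 1 of 5 members in the untreated, 0 U and 0.026 U groups and for 3 of 5 at 0.67 U. Among all miRNAs detected on the 3 arrays of a group, mouse 10 was highest for 71.0% and 84.2% in fresh RNA with and without DNase, and for 24.4% and 69.4% after storage. In depleted RNA mouse 10 was highest for 56.4% (untreated), 48.4% (0 U), 2.82% (0.026 U) and 93.3% (0.67 U). The spike-in scale of its fresh arrays was 0.22 and 0.25, against -0.07 to 0.11 on those of the other mice, and the part of array-wide brightness was not tested. When mouse 10 was left out, the storage change of mmu-miR-125b-5p with DNase was -5.32 glog2 units.

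**Figure D1:**
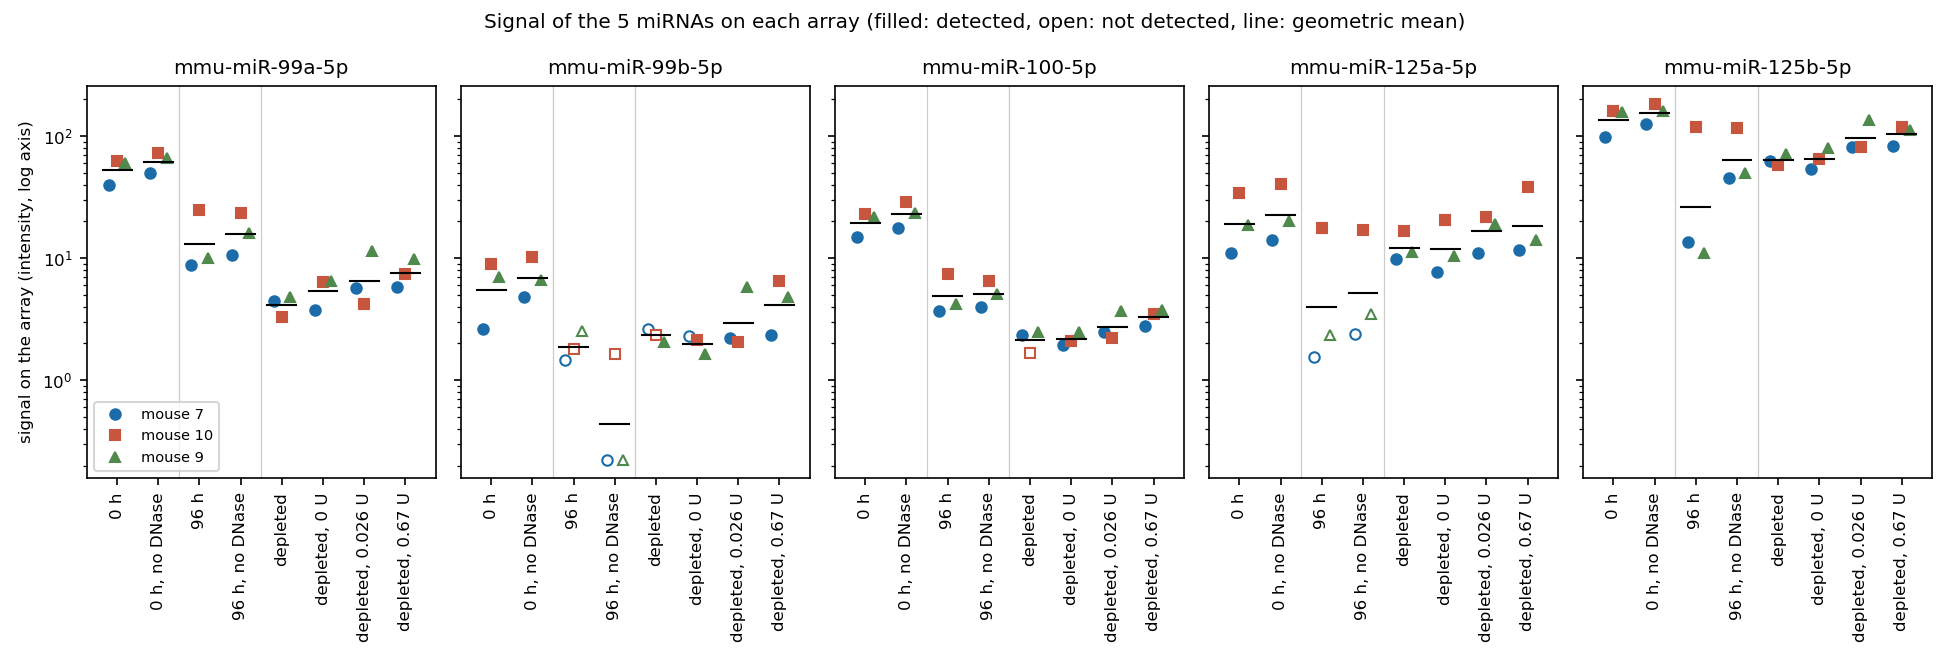
Signal of each of the 5 members (vertical axis, scanner intensity units, log axis) on each of the 24 arrays, by group (horizontal axis), with 1 symbol per mouse. The stored arrays lie below the fresh arrays of the same extraction in every mouse, and mmu-miR-125b-5p of mouse 10 after 96 h with DNase, at 119.5, stays near the fresh values.

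Whether DNase changed the storage effect was tested as a difference of changes. Over all 631 miRNAs this test called only 6 higher and 1 lower. It called 0 of 5 members, and estimates ran from -0.90 for mmu-miR-99b-5p to 1.17 for mmu-miR-125b-5p. For the latter the difference was 2.11 (limma adjusted p = 0.0443) when mouse 10 was left out, and was then called. Without mouse 10 the same test called 12 higher and 25 lower of all 631 miRNAs. Omitting DNase from fresh RNA was followed by changes of 0.18 to 0.29 in the members, none called. Over all miRNAs this comparison called 0.00%, and 29 had an unadjusted p under 0.05 in limma. At 96 h, omitting DNase called 0 of 5 members and 10.8% of all miRNAs. mmu-miR-125b-5p was higher without DNase at 96 h by 1.35 ± 0.64 (limma adjusted p = 0.219), and by 2.27 (adjusted p = 0.00184) without mouse 10. With mouse 10 left out, 88 of all 631 miRNAs were called higher and 78 lower in that comparison.

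The signals of some 3p arms of the same hairpins were higher after storage. Of the 6 arms on the array, 3 had passed the detection filter (mmu-miR-99b-3p, mmu-miR-125a-3p and mmu-miR-125b-1-3p), and all 3 were called higher after 96 h with and without DNase, where 59.7% and 59.6% of all miRNAs were. An arm that is dim in fresh RNA could pass that filter only through groups where it is bright. mmu-miR-99b-3p and mmu-miR-125b-1-3p, undetected in fresh RNA, passed in that way, so the 3 of 3 is not read as a result. mmu-miR-125a-3p was detected on 23 of the 24 arrays. With DNase, 2 of 3 arms were called when vsn was fitted on the tested miRNAs, with either scaling to the 75th percentile, with quantile normalization and in a fit of the compared groups only. In these settings 250 to 370 of all 631 miRNAs were called higher. With normexp background correction it was 1 of 3, with and without DNase, where 72 and 68 of all 631 miRNAs were called higher. The remaining arms were mmu-miR-99a-3p and mmu-miR-100-3p, detected on 0 arrays, and mmu-miR-125b-2-3p, detected on 3 of the stored arrays alone, and no change is given for them.

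mmu-miR-125a-3p, the right arm of the Mir125a hairpin printed above, gave 3.81, 2.58 and 3.12 in fresh RNA with DNase. After storage it gave 607.8, 1557 and 785.3, which was 290-fold higher without normalization. Every stored array was far above every fresh one, in the pieces in which the left arm of the hairpin fell. The change was 6.00 ± 0.56 glog2 units (limma adjusted p = 9.63e-09) with DNase and 6.07 ± 0.56 without DNase. All 4 of its probes were called with DNase.

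mmu-miR-99b-3p was not flagged detected on any fresh array. After storage with DNase its signals were 75.2, 38.7 and 82.4, at least 11.0-fold higher on the vsn scale and at least 62.2-fold higher without normalization. Without DNase the stored signals were 34.0, 38.1 and 29.0, all above all fresh ones.

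mmu-miR-125b-1-3p was likewise undetected in fresh RNA. After storage it gave 4.61, 152.2 and 0.61 with DNase and 66.3, 142.3 and 26.8 without DNase. With DNase it was detected on 2 of 3 arrays, and the value of mouse 9 was at background. It passed the detection filter only through stored and RNase-treated arrays, where it is bright, so no p is given for it. The rise with DNase was 2.71 ± 1.09 glog2 units. This rise was 0.76 when mouse 10 was left out, and 3.08 when mouse 7 was. As a bound on the vsn scale, the stored level with DNase was at least 2.21-fold higher. Without DNase the rise was 5.39 ± 1.09.

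**Figure D2:**
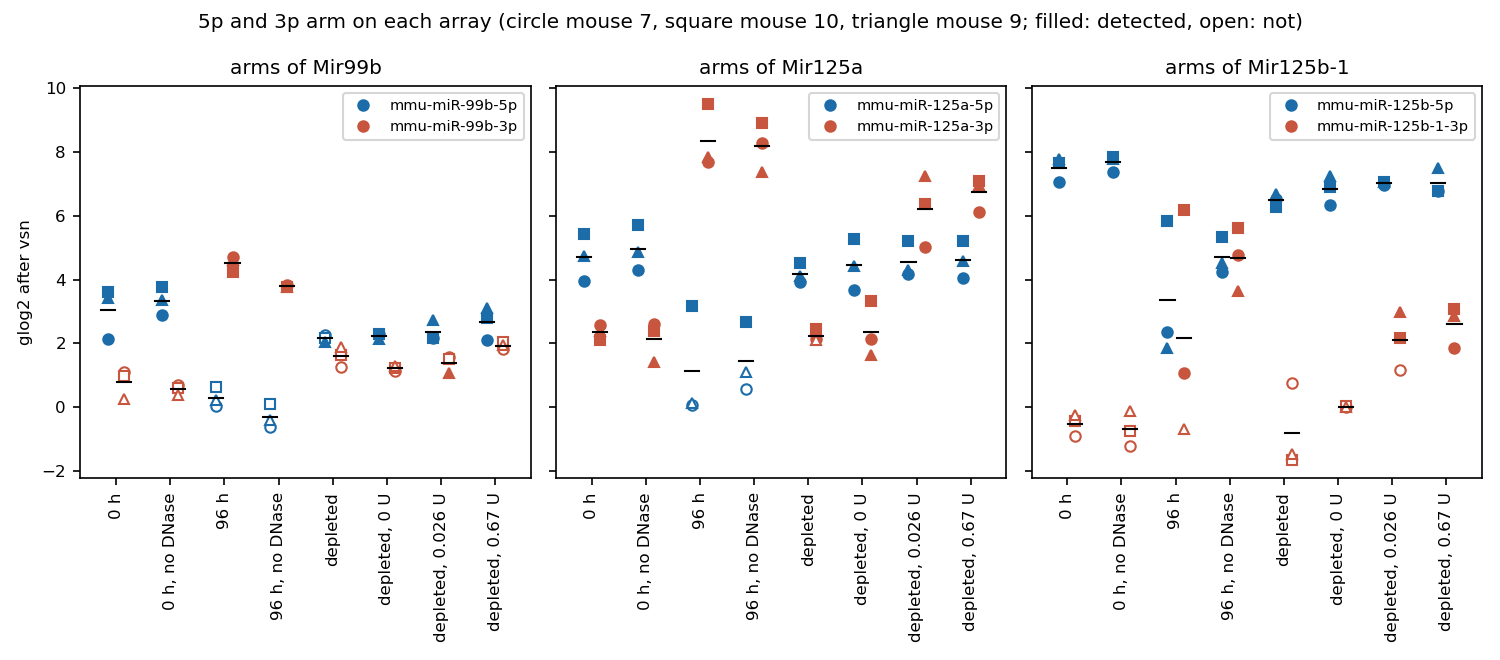
The glog2 values (vertical axis) of the 5p arm and the 3p arm of the hairpins Mir99b, Mir125a and Mir125b-1 on each array, by group (horizontal axis); filled symbols were flagged detected, open symbols were not, and black bars are group means. In the 96 h groups the means of the 5p arms lie below the fresh means and those of the 3p arms above them, by 6.00 for mmu-miR-125a-3p with DNase.

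Subtracting one arm from the other on the same array removes the scaling of that array for bright signals. The 5p-minus-3p difference of glog2 values was compared between 6 arrays at 96 h and 6 at 0 h by a two-sided exact permutation test that exchanged arrays within a mouse, which cannot go below p = 0.00926. The difference fell by 9.59 for miR-125a, from 2.59 ± 0.90 to -6.99 ± 0.76 (SD over 6 arrays each, exact permutation test, adjusted p = 0.0152 over 18 tests), and the groups were apart. Since mmu-miR-125a-5p was flagged detected in the stored pieces of mouse 10 alone, this size includes signals not above background. In the other 5 pairs the 3p arm was undetected on all fresh arrays, and mmu-miR-99b-5p was undetected on all stored ones. They passed with the same adjusted p, but a fall of the 5p arm alone would give that result. Their tests are therefore not read as arms moving apart, and their sizes are not given. With 1 mouse left out the smallest possible p was 0.0556, so no arm pair could pass.

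Depletion of small RNAs lowered some members and not others past the test. The untreated depleted RNA was compared with the same fresh RNA with DNase that served for storage, so the comparisons share these control arrays. mmu-miR-99a-5p and mmu-miR-100-5p were called lower, 2 of 5 members, where 24.4% of all miRNAs were called lower. The remaining members had negative changes that did not pass. Without normalization the same count of 2 members was called, with a background of 21.1%. Calls over all miRNAs were 34 higher and 154 lower, but 252 higher and 82 lower when arrays were scaled to the miRNAs detected on all arrays. Under that scaling mmu-miR-99b-5p and mmu-miR-125a-5p were called higher (1.02 and 1.61), and mmu-miR-100-5p, at -0.93, was no longer called lower. Under quantile normalization mmu-miR-125b-5p was called higher (1.68). With normexp background correction it was called higher too (1.23), and mmu-miR-99a-5p and mmu-miR-100-5p, at -0.94 and -0.87, were not called.

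mmu-miR-99a-5p gave 4.44, 3.27 and 4.82 in depleted RNA, against 39.4 to 62.1 in fresh RNA. No depleted array came near the fresh range. The change was -3.35 ± 0.43 glog2 units (limma adjusted p = 1.85e-06), or 12.9-fold lower without normalization. mmu-miR-100-5p gave 2.36, 1.68 and 2.50, of which the second was not flagged detected. It was lower by -2.67 ± 0.32 (limma adjusted p = 7.55e-07), 9.07-fold without normalization. Signals this near background limit how far its fall could be seen.

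mmu-miR-125b-5p gave 63.0, 58.3 and 71.0 in the same depleted RNA. This was below the fresh range of 98.1 to 161.0 without overlap, and 2.12-fold lower without normalization. The change was -1.003 ± 0.64 (95% interval -2.33 to 0.33, limma adjusted p = 0.290). mmu-miR-125a-5p gave 9.76, 16.6 and 11.2, overlapping the fresh signals with 1 value below them, and its change was -0.53 ± 0.69 (adjusted p = 0.703). mmu-miR-99b-5p gave 2.61, 2.36 and 2.06, with 1 array flagged detected, and its change was -0.89 ± 0.35 (adjusted p = 0.0608). That of mmu-miR-99b-5p was -1.40 and was called (adjusted p = 0.0120) when mouse 7 was left out.

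**Figure D3:**
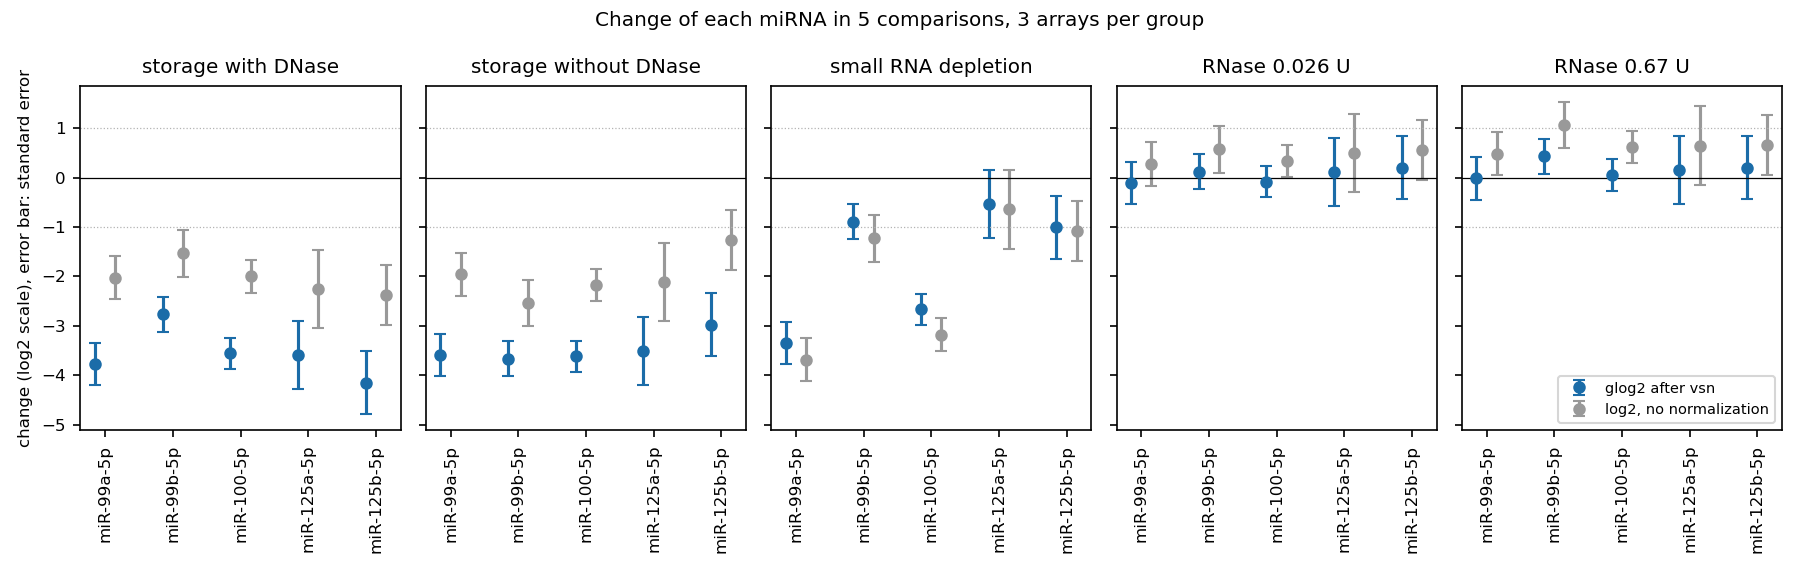
Change of each member (vertical axis, log2 scale, error bars are standard errors) in 5 comparisons, after vsn and without normalization. At depletion mmu-miR-99a-5p and mmu-miR-100-5p lie at -3.35 and -2.67 after vsn and the miR-125 members at -0.53 and -1.003; at storage all 5 lie below -2.7 after vsn, and the values without normalization are nearer to 0.

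Differences between members at depletion were also tested within arrays, which removes a shift of the whole array for bright signals. The arrays include those of the comparison above, so this was no independent test. For each of the 10 pairs of members, the glog2 difference of the pair was compared between 6 depleted arrays (untreated and 0 U) and 6 fresh arrays (with and without DNase), and 7 of 10 pairs passed (exact permutation test, adjusted p = 0.0347 for each, over 30 tests). Of the 6 pairs between the families 4 passed, all with groups apart. These were mmu-miR-99a-5p or mmu-miR-100-5p against either miR-125 member. The families as wholes did not separate. mmu-miR-99b-5p changed by -0.48 relative to mmu-miR-125a-5p and by -0.07 relative to mmu-miR-125b-5p (exact permutation test, adjusted p = 0.139 and 0.895). The untreated and the 0 U arrays of a mouse held aliquots of the same depleted RNA, so the depleted side rests on 3 preparations and the exact p counts arrays. With 1 value per mouse an exact test could not go below p = 0.25.

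The mmu-miR-99a-5p minus mmu-miR-125b-5p difference varied little between arrays of a group. It was -1.30, -1.36 and -1.37 in fresh RNA with DNase and -3.64, -3.78 and -3.66 in untreated depleted RNA. Over both groups of each kind it changed by -2.23, which is well beyond its SD of 0.038 over 6 fresh arrays and 0.18 over 6 depleted arrays (exact permutation p = 0.00926). In the single mice it changed by -2.28, -2.16 and -2.25. mmu-miR-99a-5p fell by 2.64 relative to mmu-miR-125a-5p. mmu-miR-100-5p fell by 2.14 relative to mmu-miR-125a-5p and by 1.73 relative to mmu-miR-125b-5p.

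Within the miR-99/100 family the members also separated. mmu-miR-99a-5p fell by 2.16 relative to mmu-miR-99b-5p, and mmu-miR-99b-5p changed by 1.66 relative to mmu-miR-100-5p. Both mmu-miR-99b-5p and mmu-miR-100-5p were near background in depleted RNA, which limits how far their own falls could be seen. mmu-miR-99a-5p and mmu-miR-100-5p, 1 base apart, changed by -0.50 relative to each other (exact permutation test, adjusted p = 0.0617). The miR-125 members changed by 0.41 relative to each other, and that pair passed with overlapping groups. On a log2 scale floored at each array's dimmest detected signal, 7 of 10 pairs passed again. With a mouse left out no pair could pass, since the smallest possible p was 0.0556.

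**Figure D4:**
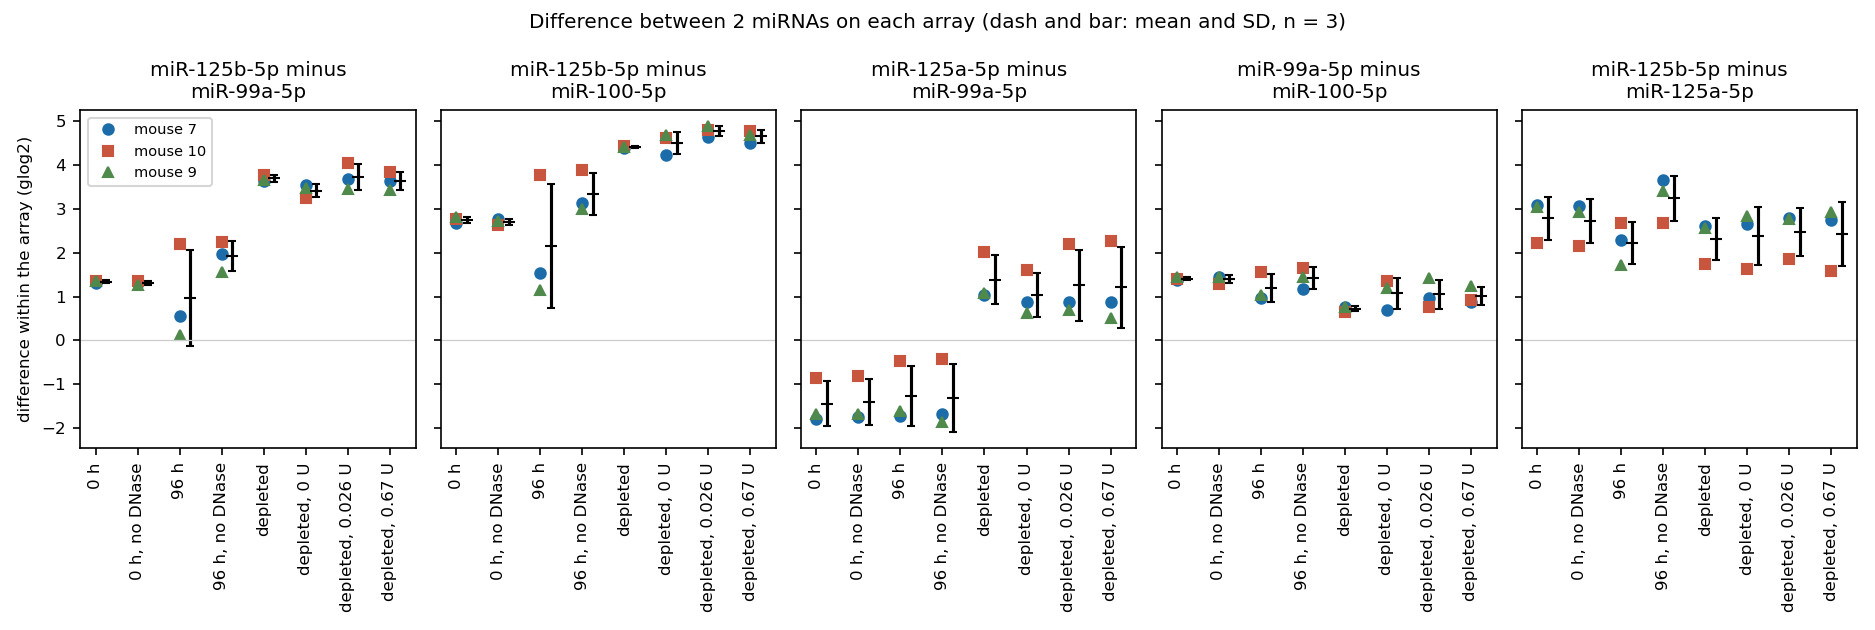
Difference of glog2 values between both miRNAs of a pair on each array (vertical axis), by group (horizontal axis), for 5 pairs. In the 4 groups of depleted RNA the pairs of mmu-miR-125b-5p or mmu-miR-125a-5p with mmu-miR-99a-5p lie apart from the fresh groups, by 2.23 and 2.64 over the groups tested, and in the stored groups they scatter around the fresh values.

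At storage 0 of 10 pairs passed in the same test (exact permutation test; smallest unadjusted p = 0.167). The changes of the pair differences ranged in size from 0.016 to 0.47. The spread was wide: the mmu-miR-99a-5p minus mmu-miR-125b-5p difference was -0.56, -2.20 and -0.12 after storage with DNase. The pair changes at storage were not tested against those at depletion.

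RNase treatment of depleted RNA left the 5p members without a call. The changes over both doses against 0 U ran from -0.07 for mmu-miR-99a-5p to 0.27 for mmu-miR-99b-5p, and 0 of 5 were called, while 44.5% of all miRNAs were called higher. The median change over all miRNAs was 0.68. The 0 of 5 held at 0.026 U and at 0.67 U, where 36.9% and 45.2% of all miRNAs were called in either direction, and for incubation at 0 U against untreated RNA, where 1.43% were. mmu-miR-125b-5p gave 54.0, 65.4 and 79.6 without RNase (0 U), and 83.5, 118.2 and 112.5 with 0.67 U. All 3 of the latter were above the former, by 1.58-fold without normalization. The direction depended on scaling: over both doses mmu-miR-125b-5p changed by 0.20 ± 0.55 after vsn and by -1.70 (called) after quantile normalization, and 281 miRNAs higher and 0 lower became 156 and 233 when vsn was fitted on the tested miRNAs. The 10 pairs of members were compared between both doses and the untreated and 0 U arrays together, and 1 passed. There mmu-miR-100-5p changed by -0.26 relative to mmu-miR-125b-5p (exact permutation test, adjusted p = 0.0347), with overlapping groups, and 0 passed on the floored scale. For mouse 9 the labels contradict each other on which array had which dose. These arrays were placed by their descriptions, and the size of a change over both doses does not turn on that choice. With the doses by title, 287 miRNAs were called higher and 2 lower over both doses, and again 0 of 5 members.

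The signal of mmu-miR-125a-3p rose with RNase as well, in RNA depleted of small RNAs, and its source was not tested. Its signals on the 0 U arrays were 1.98, 4.94 and 0.95. They were 20.8, 50.5 and 153.3 with 0.026 U and 52.3, 146.9 and 77.3 with 0.67 U. Every treated array exceeded every 0 U array, by 25.5-fold and 39.3-fold on average without normalization. Over both doses the change was 4.11 ± 0.49 glog2 units (limma adjusted p = 7.81e-07). mmu-miR-125b-1-3p changed by 2.34 ± 0.94, by 1.61 without normalization, by 2.76 without mouse 7 and by 2.05 without mouse 9. It was undetected on the 0 U arrays and passed the detection filter as said above, so no p is given. mmu-miR-99b-3p changed by 0.43 ± 0.22 (adjusted p = 0.111). Against the untreated and 0 U arrays together, the 5p-minus-3p difference of miR-125a fell by 3.92 (exact permutation test, adjusted p = 0.0152, 6 against 6 arrays, no overlap). All 12 of these arrays came from the 3 preparations of depleted RNA.

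Read by group, the levels of every member were highest in fresh RNA without DNase and next in fresh RNA with DNase, and these neighbours overlapped for all 5 members on both scales. After vsn the stored groups were the lowest for all 5 members, and the ranges of mmu-miR-99b-5p, mmu-miR-100-5p, mmu-miR-125a-5p and mmu-miR-125b-5p in the lowest depleted group did not overlap the stored group next to it. Without normalization the bottom of the order changed: mmu-miR-99a-5p and mmu-miR-100-5p were then lowest in depleted RNA and mmu-miR-125a-5p, mmu-miR-125b-5p and mmu-miR-99b-5p after storage with or without DNase.

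The let-7 miRNAs of the same clusters, known as repressors of cell growth genes, also fell with storage. Of mmu-let-7a-5p, mmu-let-7c-5p and mmu-let-7e-5p, 3 of 3 were called lower with and without DNase. With DNase the changes were -4.77 ± 0.60, -3.94 ± 0.52 and -5.59 ± 0.61 glog2 units. At depletion 0 of 3 were called, with changes of -1.56, -0.93 and -1.12. With the mouse as a block, or in a fit of the compared groups only, mmu-let-7a-5p and mmu-let-7e-5p were called lower, 2 of 3. Of all 631 miRNAs, 161 and 171 were called lower at depletion in these settings. The depletion change of mmu-let-7c-5p was 1.58 after quantile normalization. mmu-let-7a-5p and mmu-let-7c-5p are also encoded outside these clusters.

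By sequence, 3 miRNAs of the array have the seed ACCCGUA, all of them members, and 5 have the seed CCCUGAG, among the 1608 array miRNAs matched to a RefSeq sequence. The non-members with the latter seed were mmu-miR-351-5p and mmu-miR-6367, detected on 0 arrays, and mmu-miR-6394, detected on 10. mmu-miR-6394 is printed because it has the seed of the miR-125 family.
mmu-miR-6394: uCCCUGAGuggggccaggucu

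It was undetected in fresh RNA and gave 15.1, 9.50 and 25.5 after storage with DNase. This was at least 2.98-fold higher on the vsn scale, in a comparison where 59.7% of all miRNAs tested were called higher. It passed the detection filter only through stored and RNase-treated arrays, where it is bright, so no p is given. The wider relatives mmu-miR-10a-5p and mmu-miR-10b-5p have a different seed, ACCCUGU. mmu-miR-10a-5p was called lower with storage, by -2.98 with DNase. mmu-miR-10b-5p was detected on the 6 fresh arrays alone. It passed the detection filter only through them, where it is brightest, so no change or p is given for it. At depletion mmu-miR-10a-5p changed by -3.22 ± 0.52 (limma adjusted p = 3.27e-05).

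Over the 24 arrays, the glog2 profiles of mmu-miR-99a-5p and mmu-miR-100-5p had a Pearson r of 0.983 and those of mmu-miR-125a-5p and mmu-miR-125b-5p of 0.942, while mmu-miR-99a-5p and mmu-miR-125a-5p had 0.598, the lowest of the 10 pairs. The miRNAs outside the families with the profile most like the members' mean were mmu-miR-103-3p (r = 0.992), mmu-miR-342-3p (r = 0.992) and mmu-miR-23b-3p (r = 0.985). These correlations are descriptions over arrays that share mice, slides and normalization.

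Each member had 2 probes on the array. Tested singly over 1414 probes, both probes of all 5 members were called lower after storage, with and without DNase. At depletion both probes of mmu-miR-99a-5p and mmu-miR-100-5p were called, and those of the other 3 members were not.

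Markers of other liver cells moved with the same comparisons. The endothelial mmu-miR-126a-3p, at 272.8 to 471.3 in fresh RNA with DNase, was at 50.8 to 122.4 after storage and at 14.9 to 25.1 in depleted RNA. The summed signal of the 3 hepatocyte markers ran from 7655 to 13360 in fresh RNA with DNase, from 3546 to 6741 after storage and from 2489 to 3207 in depleted RNA. The myeloid mmu-miR-223-3p ranged over 22.9 to 45.2 in fresh RNA with DNase, 10.4 to 21.3 after storage with DNase and 2.45 to 5.14 in depleted RNA. Of 3 biliary markers, 2 were detected, on the 6 fresh arrays alone. Of 2 muscle markers, mmu-miR-133a-3p was detected, on the 6 stored arrays alone. Both neuronal markers were detected on 0 arrays. The part of these shifts in the members' changes was not tested.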

How the data were processed

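RNA from 3 mouse livers was hybridized to 24 one-colour arrays, 3 in each of 8 groups. Per the file headers, the arrays were read with Agilent Feature Extraction 10.10.1.1, and their output as deposited gives, for every array, the fluorescence intensity of each miRNA after background subtraction alone, and whether it was detected. A table of all arrays holds log2 scale values that the authors made with vsn, and it served as an alternative. The number of arrays limits the precision.

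The signal was the total gene signal where a miRNA was detected and otherwise the sum of its probes. vsn was refitted in Python 3.11.15 (numpy 2.4.6, pandas 2.3.3, scipy 1.17.1, figures with matplotlib 3.10.9), in 7 rounds that each kept 90% of the miRNAs in 5 slices, and differed from the deposited values by an SD of 0.000854. miRNAs flagged detected on at least 5 of the 24 arrays (631 of 1881) were fitted with limma 3.58.1 in R 4.3.3 as 8 group means with an intensity trend. Unnormalized values are log2 of the signal floored at 1. Within-array differences were tested by exchanging arrays within a mouse. The rank test named in the methods cannot pass an adjusted threshold with 3 against 3, so it was an alternative.

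The same mouse gave 1 array to each group. Deviations from the group means correlated by 0.092 on average between arrays of a mouse and by -0.099 between mice. Arrays of mouse 9 at both RNase doses were grouped by description. Named miRNAs were the members, their 3p arms, the let-7 miRNAs of their clusters, relatives by seed, and the 3 miRNAs most correlated with the members' mean profile. The members and lists were chosen with earlier results of these data known. Alternatives were other normalizations, normexp background correction (offset 50) on the spots' median signals, no filter, a mouse block, the compared groups alone, single probes, the other dose label and each mouse left out. On simulated data the storage comparison with DNase recovered 73% of 100 miRNAs changed by 2 units and 99% of 100 changed by 4 units, among 631. Sequences and positions are from RefSeq on GRCm38.p6, matched by name.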

Additional observations from a re-analysis of the deposited data

How the results depend on the processing

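Each comparison has 3 arrays per group from the same 3 livers, so the results describe these animals, and slide and scan move with the mouse. The loss of members after storage is measured near background for mmu-miR-99b-5p and mmu-miR-125a-5p. The exact rank test could not pass: it called 0 members at storage with DNase, storage without DNase and depletion. With the mouse as a replicate block, the members called were 5 of 5 at both storage comparisons and 2 of 5 at depletion. No call of a member changed after vsn, and 136, 147 and 161 of all 631 miRNAs were called lower. Without normalization the block called 5 members at both storage comparisons and 3 at depletion, beside 97, 108 and 139 of all miRNAs. Without each mouse in turn, 5 members stayed called at storage and 2 to 3 at depletion. Of all miRNAs, 133 to 143 were then called lower at storage with DNase, 144 to 147 without DNase and 129 to 149 at depletion. Without normalization and with mouse 9 left out, 3 members were called at storage with DNase, beside 73 of all miRNAs called lower. Without DNase 3 were called with mouse 7 or mouse 9 left out, beside 83 and 89 of all miRNAs. These settings were chosen after seeing the data. At storage with and without DNase normexp called 4 members, and spike-in scaling called 4 without DNase. Of all miRNAs, normexp called 73 and 83 lower at storage, and spike-in scaling 98 without DNase. At depletion normexp called 1 member higher and 0 lower, beside 33 and 38 of all miRNAs. At 96 h the omission of DNase called 1 member higher with scaling to the miRNAs detected on all arrays, beside 57 of all miRNAs. Without mouse 10 it called 1 member higher with and without normalization, beside 88 and 63 of all miRNAs. The difference of storage changes with and without DNase likewise called 1 without mouse 10, beside 12 and 33 of all miRNAs called higher. With RNase at 0.026 U the members called were 1 (vsn on tested miRNAs), 2 (scaling to miRNAs detected on all arrays), 1 (quantile) and 1 (normexp). At 0.67 U they were 2, 3, 4 and 1, and over both doses 2, 3, 3 and 1, in the same order. All of these members were called lower. Of all 631 miRNAs, 188, 151, 113 and 15 were called lower at 0.026 U in that order. At 0.67 U it was 256, 187, 157 and 25, and over both doses 233, 184, 146 and 22. With any mouse left out, 0 pairs of members and 0 pairs of arms passed the exact test, in which they could not.

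Directions turned as follows, and the cause was not tested. At depletion, scaling to the miRNAs detected on all arrays gave 1.25 for mmu-let-7c-5p, 1.61 for mmu-miR-125a-5p and 1.02 for mmu-miR-99b-5p. Quantile normalization gave 1.58 for mmu-let-7c-5p and 1.68 for mmu-miR-125b-5p, and normexp 1.46 and 1.23. With RNase at 0.67 U, mmu-miR-100-5p was at -1.22 (vsn on tested miRNAs), -1.32 (scaling to miRNAs detected on all arrays) and -1.10 (quantile), mmu-miR-125a-5p at -1.29 and -1.68 under the latter scalings, and mmu-miR-125b-5p at -1.87 (quantile) and -1.47 (normexp). Over both doses mmu-miR-125a-5p was at -1.18 and -1.48 under those scalings and mmu-miR-125b-5p at -1.70 (quantile) and -1.29 (normexp). At 0.026 U mmu-miR-125b-5p was at -1.12 with normexp. Probe 2 of mmu-miR-125b-1-3p gave -1.93 over both doses. On the floored scale the difference of mmu-miR-125b-5p and mmu-miR-125b-2-3p at depletion was -1.23, with the 3p arm undetected.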
